A study of Mus musculus with 2 samples.

Results

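The distant flanks of Fos are the stretches of mouse chromosome 12 that lie 500 to 1000 kb from the gene on either side, and they describe the long-range contact background of its promoter. They were chosen by mm9 coordinate alone, as the outermost positions of the cortical neuron table: 500 on the side of lower coordinates, from 85814834 to 86313834, and 500 on the side of higher coordinates, from 87315834 to 87814834. Together these are 1000 of the 2001 positions of that table and of the 2202 positions in the series.

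The contacts were measured by circular chromosome conformation capture with sequencing (4C-seq) from a viewpoint at the Fos promoter, to evaluate its interaction with putative enhancers. The cortical neurons were primary cells of E15.5 embryos, kept 10 to 11 days in culture, and gave 1 library. No genotype, strain or treatment is named in their labels. The series also holds 1 library from the hippocampus of mice aged 3 months, whose table reaches 100 kb to each side and has 0 positions in the distant flanks.

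Fos is an immediate-early gene: neurons transcribe it within minutes of stimulation, and its product joins a Jun protein to form the transcription factor AP-1. In 4C-seq, chromatin is cross-linked, cut and re-ligated, and fragments joined to the viewpoint are amplified and sequenced, so that signal rises with how often a place lay near the viewpoint. Contact frequency within a chromosome usually decreases with distance, and the signal far from a viewpoint serves as the level against which enhancer contacts nearby are read. Domains of preferred contact can interrupt that decrease.

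In the order of protein-coding genes, the nearest on the lower side of Fos is Tmed10, and Dlst is the 9th. From Dlst the order runs outwards past Prox2 and Ylpm1 to Fcf1, a factor of ribosomal RNA processing, and Arel1, a ubiquitin ligase. Beyond them come Ltbp2, an extracellular matrix protein, Isca2, which acts in the assembly of mitochondrial iron-sulfur proteins, and Npc2, a lysosomal cholesterol carrier. Syndig1l, Vrtn and Abcd4, a lysosomal transporter needed for vitamin B12, follow. The higher side runs past Jdp2, Batf, Flvcr2, Erg28 and Ttll5 to the TGF-beta ligand Tgfb3, the ciliary transport protein Ift43, Gpatch2l, the nuclear receptor gene Esrrb and Vash1. This order was read from RefSeq on another build (GRCm38.p6). No mm9 gene positions were used here, so the windows described next carry mm9 coordinates and are not assigned to a gene, exon or intron.

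Signal has the unit of the deposited table, in which the library peaks at 1 in its highest 2 kb window, and is given in windows of 10 kb centred 1 kb apart unless another size is named. Of 500 positions a side, 495 had a 10 kb value, because windows at the outer ends of the table are not listed. The 495 windows overlap and correspond to 50 windows that do not. The window centred just inside the lower flank, at -501 kb, had a signal of 0.103, and its neighbour outside, at -500 kb, had 0.0943. On the higher side these were 0.162 at 501 kb and 0.143 at 500 kb. With 1 library there is no replicate error and no test, each SD below is a spread over windows, and read depth is unknown.

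Both distant flanks had nearly the same level. The mean signal was 0.111 ± 0.0261 (SD over 495 overlapping windows) on the lower side and 0.115 ± 0.0260 (495 windows) on the higher side. The lower flank ranged from 0.0464 to 0.179 with a median of 0.112. The higher flank ranged from 0.0532 to 0.181 with a median of 0.115. The ranges overlapped over nearly their whole length, and the log2 ratio of the means, lower over higher, was -0.053. In blocks of 100 kb from 500 kb outwards the same ratio was 0.0078, 0.0028, -0.041, -0.14 and -0.12. By mean, the sides were level in the inner blocks and the lower side was below in the outer ones. No error can be put on these ratios. Of 495 pairs of windows at the same distance to either side, the lower side was above the higher in 239, or 48.3%. By block, from 500 kb outwards, it was above in 57, 45, 50 and 37 of 100 pairs and in 50 of 95.

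The sides differed in how many windows were listed at 0, and less in how many runs these formed. In 2 kb windows, 21 of 499 (4.21%) were listed at 0 on the lower flank and 9 of 499 on the higher flank, against 34 of 1001 (3.40%) in the rest of the cortical table. On the lower flank 19 of the 21 lay beyond 700 kb. There they formed a run of 6 windows from -737 to -732 kb, a run of 4 from -944 to -941 kb and a run of 3 from -754 to -752 kb. The longest run of the higher flank was of 2 windows, at 508 and 509 kb. In the rest of the cortical table the longest of 22 runs was of 7 windows, so long runs were not particular to the lower flank. Whether a window at 0 was measured as empty or held no usable fragment is not stated in the table. The 101 lower windows of 10 kb that hold such a place had a mean of 0.0928 ± 0.0288, and the other 394 had 0.115 ± 0.0233. The 72 higher windows with such a place had 0.117 ± 0.0255 and the other 423 had 0.114 ± 0.0260. Without the windows that hold one, the log2 ratio between the sides was 0.011, so its sign turned. In the blocks beyond 700 kb the lower and higher means were then 0.117 and 0.110, 0.105 and 0.114, and 0.104 and 0.103, going outwards. Of these blocks, the lower side was then below only at 800 to 900 kb. A mean of logs is pulled down by zeros, so leaving such windows out can raise the side that holds more of them, and the part of the zeros in the difference was not tested.

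**Figure D1:**
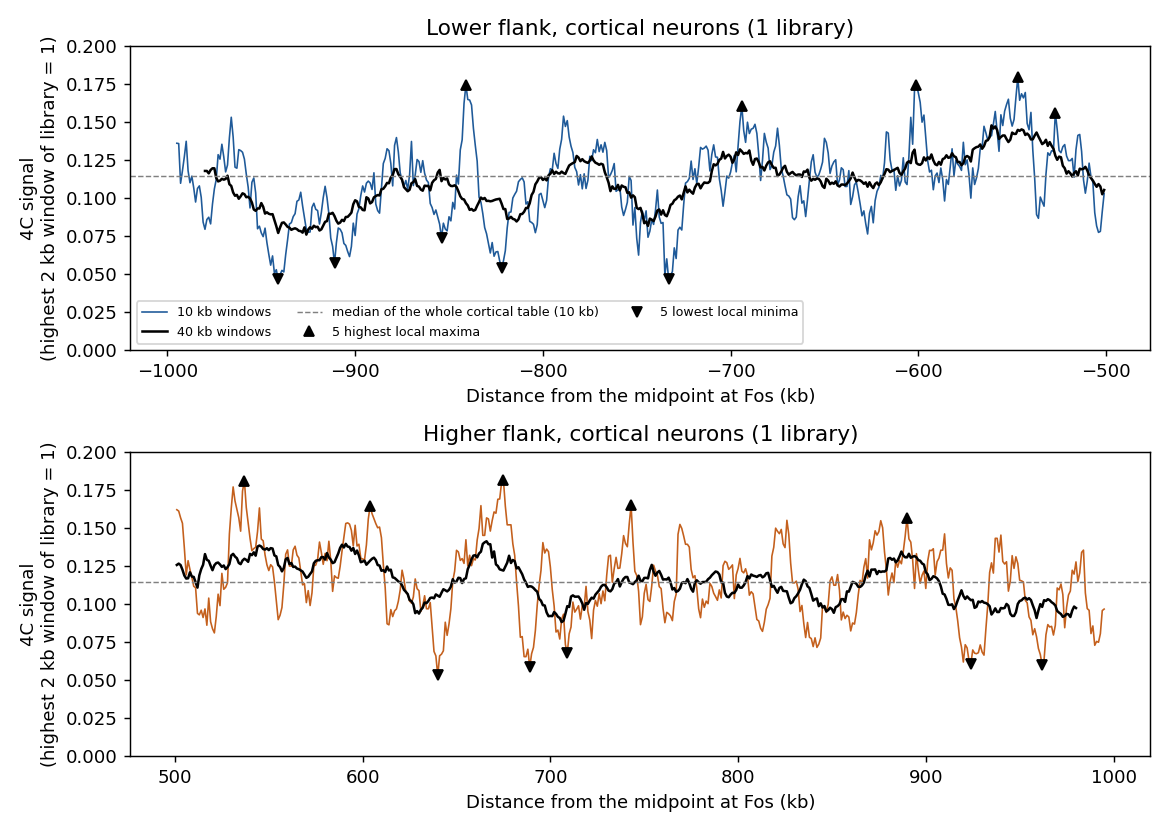
Signal along the lower flank (top) and the higher flank (bottom) against distance from the midpoint at Fos in kb, in 10 kb windows (coloured line) and 40 kb windows (black line) of the 1 cortical library. Triangles mark the 5 highest maxima and the 5 lowest minima of each side, and the dashed line is the median of the whole table, 0.114. On the lower side 4 of the 5 lowest minima lie beyond 800 kb, and the highest maximum, 0.179, is at -547 kb.

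Within both flanks the signal was lower with distance from Fos. On the lower side the block means were 0.128 ± 0.0226 at 500 to 600 kb, 0.119 ± 0.0198 at 600 to 700 kb, 0.108 ± 0.0241 at 700 to 800 kb, 0.104 ± 0.0250 at 800 to 900 kb and 0.0943 ± 0.0251 at 900 to 1000 kb. The SD is over the 100 windows of a block, 95 in the outermost. Each block was below the one nearer to Fos. Without windows that hold a place at 0 this order was broken, with 0.128, 0.115, 0.117, 0.105 and 0.104. With all windows the innermost was 1.36-fold the outermost, a log2 difference of -0.45 for outermost over innermost. The higher side had means of 0.128 ± 0.0229, 0.118 ± 0.0317, 0.111 ± 0.0196, 0.114 ± 0.0226 and 0.102 ± 0.0250 in the same order. There the block at 800 to 900 kb stood above the one before it, and the innermost was 1.25-fold the outermost, a log2 difference of -0.32. The SD of log2 signal inside a block was 0.24 to 0.42, so the difference across a whole flank was about as large as the spread among windows of 1 block.

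As a straight line, log2 signal changed by -0.097 per 100 kb on the lower side and by -0.063 on the higher side. In 10 kb windows distance accounted for 14.2% of the variance of log2 signal on the lower and 6.80% on the higher flank. Most of the variation at that width was therefore local. In 40 kb windows the slopes were -0.105 and -0.064, while the SD of log2 signal was 0.215 and 0.160, against 0.370 and 0.343 in 10 kb windows. The share that goes with distance was not computed for 40 kb windows. The lower slope was -0.064 without the 10 kb windows that hold a place at 0. Their part in the steeper lower slope was not tested further. The higher slope was -0.065 without them, and without the outermost 100 kb it was -0.040, so on that side the outermost block moved the value by over 1.5 times.

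**Figure D2:**
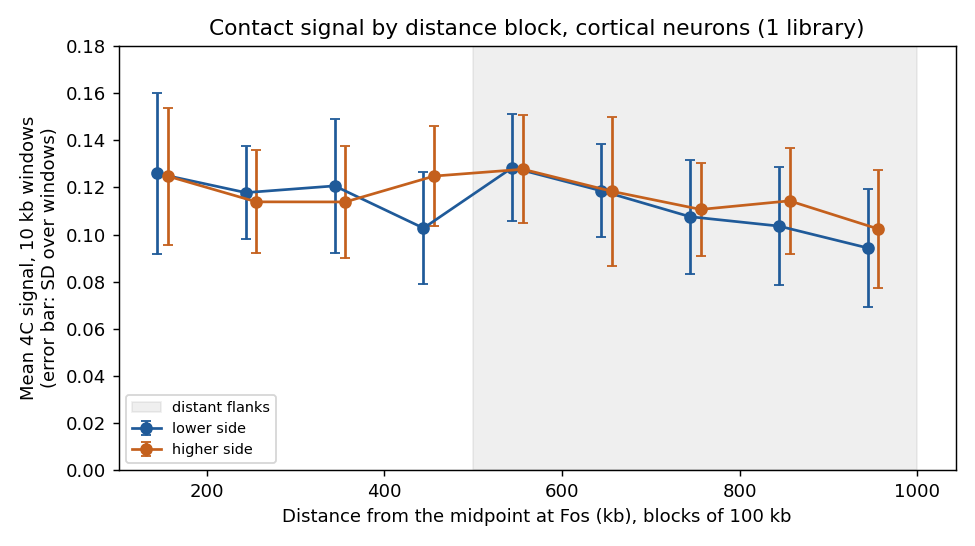
Mean 10 kb signal in blocks of 100 kb against distance from the midpoint at Fos, from 100 to 1000 kb, for the lower and the higher side of the 1 cortical library, with the SD over windows as error bars and the distant flanks shaded. The means at 500 to 600 kb, 0.128 on both sides, are level with those at 100 to 200 kb to within the SD, and the blocks at 900 to 1000 kb have the lowest means of each side.

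The inner edge of the flanks was not part of a steady decrease from Fos. On both sides the block at 500 to 600 kb, with a mean of 0.128, was close to the block at 100 to 200 kb, which had 0.126 ± 0.0341 (lower side, 100 windows) and 0.125 ± 0.0291 (higher side, 100 windows). Without windows that hold a place at 0 the order of the 2 blocks turned on each side, with 0.1284 at 500 to 600 kb against 0.1295 below Fos and 0.1287 against 0.1292 above it. On the lower side it followed the low block at 400 to 500 kb, 0.103 ± 0.0239 (100 windows). The higher block at 400 to 500 kb had 0.125 ± 0.0210 (100 windows), close to the 0.128 beyond it. From 100 to 500 kb the slope was -0.084 per 100 kb on the lower side and 0.013 on the higher side. A decrease with distance was therefore listed on the higher side for the distant flank and not for the stretch from 100 to 500 kb. Whether the 2 slopes of that side differ was not tested.

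Set against nearer chromatin of the same side, the flanks were only slightly lower. The lower flank was -0.078 log2 from the mean at 100 to 500 kb (0.117 ± 0.0283, 400 windows) and the higher flank -0.056 from its own (0.119 ± 0.0247, 400 windows). These small differences depended on the summary: with medians they were -0.00062 and -0.033. In 5 kb windows, with those at 0 left out, they were -0.032 and -0.017. With flanks that start at 600 kb they were -0.14 and -0.098. Against 10 to 50 kb the differences were -0.29 on the lower side (0.136 ± 0.0429, 40 windows) and -0.40 on the higher side (0.152 ± 0.0371, 40 windows). The region at 10 to 50 kb was thus 1.23-fold and 1.32-fold the flank of its side. The region at 50 to 100 kb on the lower side had 0.110 ± 0.0211 (50 windows), the level of the flank to within 0.011 log2. Its counterpart on the higher side had 0.124 ± 0.0258 (50 windows), 1.08-fold the flank.

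The distant flanks held fewer high and more low windows than the rest of the table. A window was called high at 1.5-fold the table median (0.114) or more, that is from 0.172, and low from 0.0762 downwards. Over the whole table, 66 of 1991 windows (3.31%) were high. The lower flank had 4 high windows of 495 (0.808%) and the higher flank 5 of 495 (1.01%), all 9 of them in 6 short stretches. Outside the flanks 5.69% were high, 57 of 1001 windows, in 16 stretches. Low windows made up 5.68% of the whole table, 113 of 1991. They were 44 of 495 (8.89%) on the lower flank, 37 of 495 (7.47%) on the higher flank and 32 of 1001 (3.20%) in the rest. The rest includes the windows close to Fos, and it was not uniform. From 100 to 500 kb outwards its blocks of 100 windows held 8, 1, 0 and 10 low windows on the lower side. The higher side held 5, 3, 1 and 0. High windows numbered 11, 2, 9 and 0 on the lower side and 6, 0, 4 and 1 on the higher side. Windows of a stretch overlap and are not independent, so these shares describe this library. Without the windows that hold a place at 0, and with the median taken anew, low windows made up 5.06% of the whole table (82 of 1622). They were then 24 of 394 (6.09%) on the lower flank, 44 of 423 (10.4%) on the higher flank and 14 of 805 (1.74%) in the rest, so that the order of the sides turned and both stayed above the rest. High windows were 2.71% of the whole table (44 of 1622), with 1 of 394 on the lower flank, 2 of 423 on the higher flank and 41 of 805 (5.09%) in the rest.

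Low windows were most frequent in the outermost block of each side, and on the higher side also at 600 to 700 kb. On the lower side the blocks held 0, 0, 10, 12 and 22 low windows from 500 to 1000 kb outwards. Those of the higher side held 0, 12, 2, 3 and 20. The longest low stretches were 13 windows from 919 to 931 kb on the higher side and 12 from -947 to -936 kb on the lower side. High windows were few everywhere: by block 1, 2, 0, 1 and 0 on the lower side, and 3, 2, 0, 0 and 0 on the higher side.

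**Figure D3:**
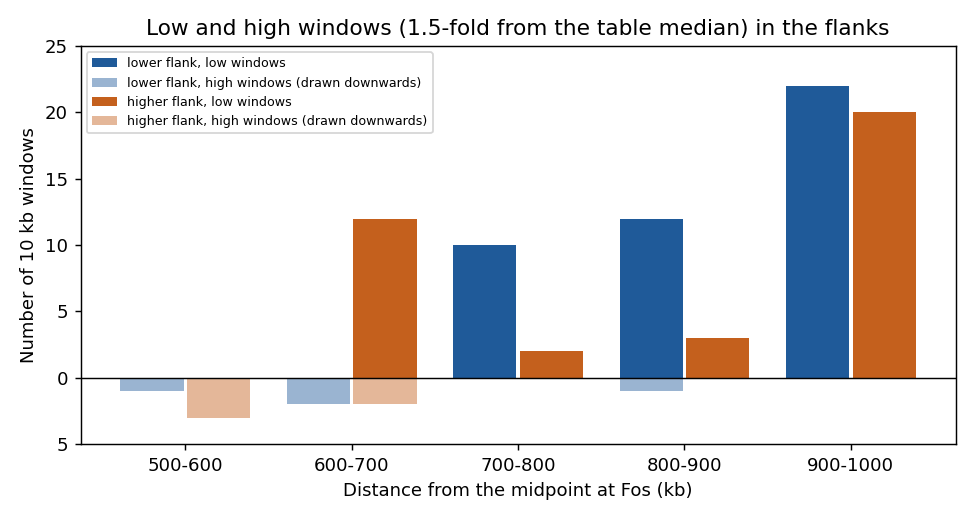
Number of 10 kb windows at least 1.5-fold below (bars upwards) or above (paler bars downwards) the table median in each 100 kb block of the distant flanks, by distance from the midpoint at Fos in kb. The outermost blocks hold 22 and 20 low windows on the lower and the higher side, and 0 high ones.

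The highest places of the lower flank were modest. The highest was chr12:86262835-86272834, at -547 kb, with a signal of 0.179 (within-window bounds 0.0503 to 0.606), or 1.57-fold the table median. It belongs to a broad rise: its 20 kb signal was 0.158 and its 40 kb signal 0.145. The highest 40 kb window of this flank, chr12:86233835-86273834, contains it whole and had a signal of 0.148.

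Maxima at -601 and -841 kb were narrower. The window chr12:86208835-86218834, at -601 kb, had 0.174 in 10 kb and 0.123 in 40 kb. The window chr12:85968835-85978834, at -841 kb, had 0.174 in 10 kb, 0.193 in 5 kb and 0.0966 in 40 kb, so that it stood inside a stretch below the table median. It lies 19 kb from the minimum at -822 kb and 13 kb from the one at -854 kb. The maxima at -694 kb (0.160) and -527 kb (0.156) stayed under 1.5-fold of the median, with 40 kb signals of 0.131 and 0.128. Of the windows outside the flanks, 4.00% were at least as high as the maximum at -547 kb and 4.90% as high as those at -601 and -841 kb.

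On the higher flank the top window was chr12:87484835-87494834, at 675 kb, with 0.181 (bounds 0.0736 to 0.436). Its 5 kb signal was 0.217. Of the 9 windows of 2 kb inside the 10 kb window, 1 was listed at 0, at 672 kb, away from the centre. Almost equal was chr12:87346835-87356834, at 537 kb, with 0.181 (bounds 0.0384 to 0.786). There the 5 kb signal in the middle was 0.112, since its highest 2 kb window, 0.291, lay away from the centre. Maxima at 743 kb (0.165), 604 kb (0.165) and 890 kb (0.157) followed. At the last the 40 kb signal was 0.131. With 1 library and no error for a window, the order among these close values cannot be judged.

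On the log2 scale, low places reached further from the table median than high ones: the lowest windows were at -1.30 and -1.10, and the highest at 0.65 and 0.67, on the lower and higher flank. The lowest 10 kb window of the whole cortical table was chr12:85868835-85878834, at -941 kb, with 0.0464 (bounds 0.00521 to 0.243). The table median was 2.46-fold its signal. The second lowest minimum of that side was chr12:86076835-86086834, at -733 kb, with 0.0465. These 2 windows hold 4 and 6 places at 0 among their 9 windows of 2 kb, in the same order. The window chr12:85987835-85997834, at -822 kb, had 0.0539 with 1 place at 0, and that at -911 kb had 0.0570 with 0. None of the 1001 windows outside the flanks was as low as those at -941, -733 and -822 kb.

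On the higher flank the lowest window was chr12:87449835-87459834, at 640 kb, with 0.0532 (bounds 0.00683 to 0.271), again below every window outside the flanks. The window chr12:87498835-87508834, at 689 kb, followed with 0.0586, and those at 962, 924 and 709 kb had 0.0597, 0.0608 and 0.0677. The 5 minima of this side hold 0 places at 0, so that low signal there was measured in windows with values throughout. The 40 kb windows with the highest and the lowest signal of this flank adjoin each other. The first, chr12:87460835-87500834, had 0.141 and the second, chr12:87500835-87540834, had 0.0883. The lowest 40 kb window of the lower flank, chr12:85868835-85908834, had 0.0759 and holds the lowest 10 kb window.

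The width of the window set how rough each flank looked. On the lower side the SD over windows was 0.0636 in 2 kb windows, 0.0368 in 5 kb, 0.0261 in 10 kb, 0.0202 in 20 kb, 0.0161 in 40 kb and 0.0149 in 49 kb. For the higher side the values were 0.0622, 0.0368, 0.0260, 0.0187, 0.0126 and 0.0110. The sides lay close together up to 10 kb, and from 20 kb upwards the lower side kept more variation. Of the flanks it was also the one with the steeper slope and the longer runs at 0. Whether these go with the larger SD was not tested. The means on the lower and higher side were 0.122 and 0.128 in 2 kb windows, 0.108 and 0.113 in 5 kb windows, and 0.111 and 0.115 in both 10 and 40 kb windows. The step from 2 to 5 kb was larger than the difference between the sides. Single 2 kb windows reached 0.314 at -994 kb on the lower and 0.338 at 773 kb on the higher flank, where the 10 kb signals were 0.136 and 0.139.

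**Figure D4:**
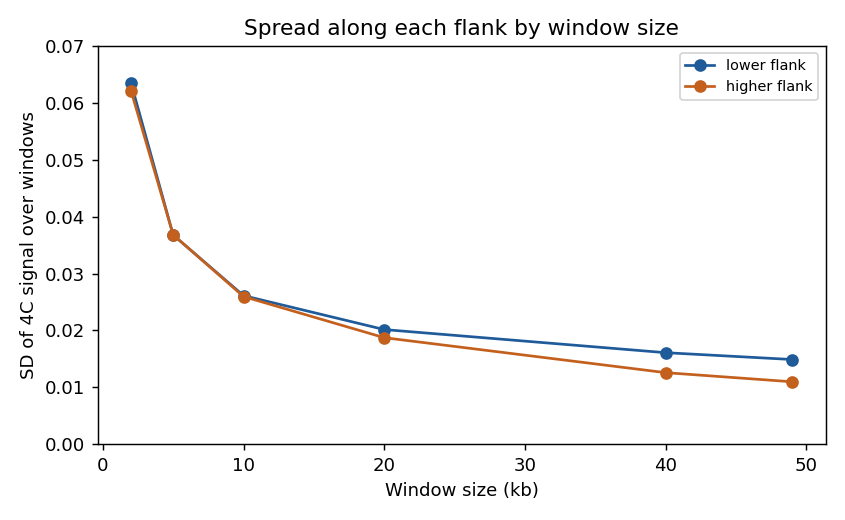
SD of the signal over the windows of each distant flank against window size in kb, for the 1 cortical library. The sides lie close together up to 10 kb and separate at 40 kb, where the SD is 0.0161 on the lower and 0.0126 on the higher flank.

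The bounds inside a window were wide. A signal is a mean over the values in its window, so signals vary less than those values by construction. The authors' upper bound lay a median of 2.12 log2 above the signal on the lower flank and 2.08 on the higher flank, against 2.32 in the rest. For these values a constant of 0.00569, described under processing, was added to bound and signal. The median bounds of the lower flank were 0.0207 and 0.493 around a median signal of 0.112. The whole range of 10 kb signals in both flanks, 0.0464 to 0.181, lies inside them.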

How the data were processed

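The 4C-seq table of 1 cortical neuron library was analysed. Formaldehyde-fixed chromatin was cut with HindII and then DpnII and ligated, and about 16 PCR reactions were combined, per the labels' protocols. Coordinates are on mm9, as the submitters' processing notes name it. How reads were aligned, counted and smoothed is not stated there. The deposited signal is listed at positions 1 kb apart for 48 window sizes, read as 2 to 49 kb from the number of windows missing at the ends, with a central value and 2 bounds. The authors scaled it so that the highest 2 kb window equals 1, as the deposited table shows. The deposited lower bound is kept as a score, because a few lie just below 0. The central value plus a constant (0.00569) is the geometric mean of the bounds plus that constant. The bounds were therefore read as a spread of log values within a window, which is not stated by the authors. Such a mean of logs is pulled down by zeros and damps single strong fragments. PCR duplicates cannot be seen, and depth is unknown, so no interval or floor is given.

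From these values Python 3.11.15, NumPy 2.4.6 and pandas 2.3.3 gave means, SDs, block means, slopes of log2 signal by least squares, and local extrema at least 20 kb apart. The 5 highest maxima and 5 lowest minima of each side were named by rule, and other windows were named after their values were seen. Distance is counted from the midpoint of the table, 86814834, taken as the viewpoint. The functions were tested on simulated data. Members, lists, windows and distance classes were chosen with earlier results of these data known. No hypothesis test was made, because the group has 1 library. Alternatives were 5, 20 and 40 kb windows, medians, geometric means, non-overlapping windows, other limits and thresholds, leaving out blocks, and leaving out windows that hold a place at 0. The last, and leaving out blocks for the slopes, were added after the values had been seen. In the 5 kb alternative, windows at 0 were left out, except where they were counted. The hippocampus table was not used here, since it does not reach these distances.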

Additional observations from a re-analysis of the deposited data

How the results depend on the processing

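No paired analysis was possible because each group has 1 library. Among the alternative values 78 stayed within a limit, 38 moved further and 1 changed sign. The limit was 1.5 times for counts and the standard error of a line through the block means for slopes. For other values it was a spread over blocks or windows. For the ratio between the sides (-0.053, limit 0.069) and the differences from 100 to 500 kb, this limit was larger than the value itself. A shrinking of those values to 0 could therefore not count as moved. In all 10 settings the slope was below 0 on each side, from -0.105 to -0.064 on the lower and from -0.076 to -0.040 on the higher. On the lower side it was -0.105 in 40 kb windows, -0.090 without the outermost 100 kb, -0.082 without 500 to 600 kb and -0.064 without windows holding a place at 0. On the higher side it was -0.040 without the outermost 100 kb and -0.044 without 500 to 600 kb. The ratio between the sides was below 0 in 13 of 14 settings, and 0.011 without windows holding a place at 0. For this ratio, flanks that start at 600 kb and leaving out 500 to 600 kb are the same setting (-0.071), and both are counted. The 14 settings here and the 10 for the slopes include the main one. The higher flank was -0.28 log2 from 10 to 50 kb in 40 kb windows. High windows on the lower and higher flank numbered 34 and 48 in 5 kb windows, 0 and 0 in 20 kb and in 40 kb windows, 34 and 50 at 1.3-fold, 0 and 0 at 1.8-fold, and 1 and 2 without windows holding a place at 0. Low windows on the lower and higher flank numbered 81 and 72 in 5 kb windows with those at 0 left out. In 20 kb windows they numbered 30 and 4, and in 40 kb windows 2 and 0. They numbered 103 and 82 at 1.3-fold, 23 and 7 at 1.8-fold, and 24 and 44 without windows holding a place at 0. The highest window was 0.236 and 0.232 in 5 kb, and 0.148 and 0.141 in 40 kb windows. The lowest was 0 on the lower flank in 5 kb windows, and 0.0138 with those at 0 left out. In 40 kb windows it was 0.0759 and 0.0883. Windows of 5 kb at 0 numbered 3 and 0. Counts thus depend on window size and threshold. Depth limits cannot be given, since no counts are listed.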

Other observations

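How quickly the signal lost its likeness along each flank was described by the Pearson correlation of log2 signal between 10 kb windows of the same flank. The points share 1 library, neighbouring ones share sequence, and no p-value applies. At 5 kb apart, where windows share their inner part, the lower flank had 0.62 and the higher flank 0.51 (490 pairs each). At 10 kb apart, where they only adjoin, it was 0.23 and 0.0021 (485 pairs each). At 20 kb it was 0.097 and -0.12 (475 pairs each), at 50 kb -0.032 and -0.075 (445 pairs each) and at 100 kb 0.14 and -0.19 (395 pairs each), so the values beyond 10 kb had no steady course.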
